A study of Homo sapiens with 6 samples.

Results

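Voltage-gated sodium and calcium channels are the membrane proteins that let sodium or calcium into an excitable cell when its membrane depolarizes. Each channel is built around 1 large pore-forming subunit, called alpha in sodium channels and alpha1 in calcium channels, which sets the voltage dependence and drug sensitivity. Smaller auxiliary subunits change how many channels reach the membrane and how they open and close. In neurons the sodium channels carry the upstroke of the action potential, and the calcium channels couple it to transmitter release and to gene expression. The genes described here were selected by symbol: the sodium channel alpha genes (SCN followed by a number and A), the sodium channel beta genes (SCN followed by a number and B), the calcium channel alpha1 genes (CACNA1 followed by a letter), CACNA2D1 to CACNA2D4, CACNB1 to CACNB4 and CACNG1 to CACNG8. The selection found 40 genes among the 60709 with a value in the count table, namely 10 sodium alpha, 4 sodium beta, 10 calcium alpha1, 4 alpha2delta, 4 calcium beta and 8 gamma genes. The CACNG genes include the TARPs (transmembrane AMPA receptor regulatory proteins), which by function belong to glutamate receptors more than to calcium channels.

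Messenger RNA was sequenced from SH-SY5Y, an established human neuroblastoma cell line of sympathetic neuron-like character. The libraries described are 3 controls, each from a well that received 10 uL of DMSO as vehicle and was lysed 5 h later. The labels also list 3 wells that received Nrf2-peptide-linked fumarate, dissolved in water, and DMSO, which were not analysed here because no table column bears their numbers, so that no treatment difference is reported. The headings of the columns used are identical to the descriptions of the 3 control samples, and this match is the only evidence that they are controls: had the columns been renumbered before deposit, they could hold other cells. Nothing in the labels says that the wells were separate cultures, so the SDs below measure the spread between these libraries, which may be technical.

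Library totals lay between 8887854 and 11397407 counts, and the 40 genes together took 0.0967%, 0.0910% and 0.0850% of the counts in replicates 1, 2 and 3. The 95% Wilson intervals, which cover counting error only, were 0.0948 to 0.0986%, 0.0893 to 0.0928% and 0.0832 to 0.0870%. Replicate 3 stood apart from the other libraries: chi-square divided by its degrees of freedom, over 13920 genes, was 2.21 between replicates 1 and 2, but 10.2 and 9.21 in comparisons with replicate 3. Of the noradrenergic neuroblastoma markers, 9 of 10 had at least 10 counts in every library, with HAND2 at 914 ± 44.3 CPM (counts per 1000000 of the scaled library total, SD, n = 3), while TH, the first enzyme of catecholamine synthesis, had 0 counts in each. None of 7 skeletal muscle markers, 1 of 6 cardiac markers (TNNI3) and 3 of 7 glial markers reached that level. So did 4 of 7 sensory neuron markers and 5 of 6 fibroblast markers, against 62.2% of all protein-coding genes. The summed level of each list, from the lowest to the highest library, was 2858 to 3213 CPM for the noradrenergic markers, 0.226 to 1.496 CPM for skeletal muscle, 3.83 to 5.25 CPM for cardiac muscle, 6.65 to 8.70 CPM for glia, 58.7 to 62.6 CPM for sensory neurons and 363 to 408 CPM for fibroblasts. COL3A1 supplied most of the last sum, at 316 ± 20.98 CPM, while COL1A2 had at most 3 counts. In bulk libraries such as these, fewer cells of a type and less RNA per cell cannot be told apart.

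At least 10 counts in every library were found for 24 of the 40 genes (60.0%), against 22.9% of all 60709 genes and 62.2% of the 19913 protein-coding genes, so the share of channel genes detected was close to that of protein-coding genes in general. No count was found in any library for 6 genes (15.0%), namely SCN10A, CACNA1A, CACNA1I, CACNA1S, CACNA2D4 and CACNG3, against 19.5% of protein-coding genes. A count of 0 allows up to 3 counts, or 0.263 to 0.339 CPM depending on the library. The other 10 genes under the minimum were SCN1A, SCN4A, SCN7A, SCN2B, CACNA1E, CACNA1F, CACNA1H, CACNA2D3, CACNG1 and CACNG6. The summed level of all 40 genes was 966, 907 and 854 CPM in replicates 1, 2 and 3, and 909 ± 56.1 CPM on average (SD, n = 3).

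**Figure D1:**
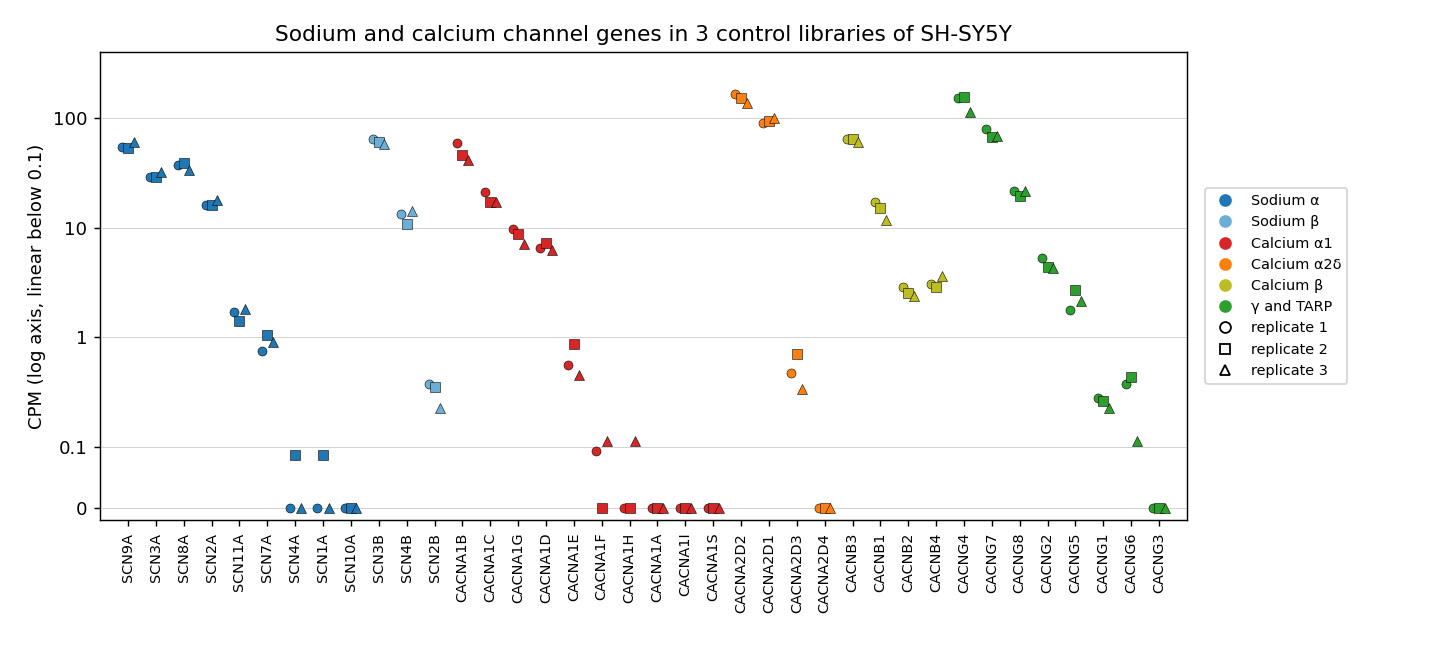
Level of the channel genes described in the text in the 3 control libraries, in CPM on an axis that is logarithmic above 0.1 and linear below; each point is 1 library, colours mark the subunit class. CACNA2D2 and CACNG4 reach over 100 CPM in every library, and 6 genes lie at 0 in all of them.

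In the median, the DNA just before the transcription start held more CG dinucleotides in detected than in other channel genes, with exceptions on either side. The 250 bases before an annotated start of 5 genes are printed because they show the range. CACNA1B and SCN9A are the highest pore-forming genes of each ion, and CACNA1A and SCN10A are relatives of them with 0 counts. SCN2A was detected and has a sequence poor in CG. Sequences are from RefSeq on GRCh38.p14, 5′ to 3′ on the strand of the gene, with each CG dinucleotide (the site of DNA methylation in vertebrates) in capitals. They lie at chr9:137877532-137877781 on the plus strand for CACNA1B, chr19:13506480-13506729 on the minus strand for CACNA1A, chr2:166375945-166376194 on the minus strand for SCN9A, chr3:38794011-38794260 on the minus strand for SCN10A and chr2:165239164-165239413 on the plus strand for SCN2A.
CACNA1B: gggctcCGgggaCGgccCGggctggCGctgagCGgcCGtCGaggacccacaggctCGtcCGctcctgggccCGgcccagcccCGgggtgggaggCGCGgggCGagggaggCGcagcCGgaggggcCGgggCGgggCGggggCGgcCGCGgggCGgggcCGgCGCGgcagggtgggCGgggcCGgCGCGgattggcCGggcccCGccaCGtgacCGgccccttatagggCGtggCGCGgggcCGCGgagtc
CACNA1A: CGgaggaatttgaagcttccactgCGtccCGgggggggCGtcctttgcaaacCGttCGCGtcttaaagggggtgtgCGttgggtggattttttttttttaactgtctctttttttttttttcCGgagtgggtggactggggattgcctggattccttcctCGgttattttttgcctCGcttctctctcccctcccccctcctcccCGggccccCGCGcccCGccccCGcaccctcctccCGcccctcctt
SCN9A: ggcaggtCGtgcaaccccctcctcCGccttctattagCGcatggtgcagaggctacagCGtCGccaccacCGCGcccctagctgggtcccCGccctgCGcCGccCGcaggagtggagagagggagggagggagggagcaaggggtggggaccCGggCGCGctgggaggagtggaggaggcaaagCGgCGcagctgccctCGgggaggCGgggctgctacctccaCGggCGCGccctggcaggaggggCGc
SCN10A: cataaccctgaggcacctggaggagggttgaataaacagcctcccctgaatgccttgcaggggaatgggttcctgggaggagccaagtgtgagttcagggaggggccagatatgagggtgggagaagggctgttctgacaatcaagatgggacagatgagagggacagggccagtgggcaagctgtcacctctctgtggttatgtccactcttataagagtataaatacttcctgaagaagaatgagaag
SCN2A: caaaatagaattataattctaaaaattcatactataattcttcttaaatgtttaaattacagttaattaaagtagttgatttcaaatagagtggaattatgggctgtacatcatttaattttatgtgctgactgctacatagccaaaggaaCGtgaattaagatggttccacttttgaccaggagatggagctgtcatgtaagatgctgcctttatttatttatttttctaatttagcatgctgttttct

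Such windows were at hand for 26 of the 40 genes, some with several annotated starts, 40 windows in all. The windows of the 14 detected genes had a median of 19 CG dinucleotides and 66.8% GC, those of the other 12 genes a median of 5 and 55.4%, and all 35116 windows in the table a median of 11 and 58.0%. CACNA1B had 39 CG dinucleotides and SCN9A had 22, against 0 for SCN10A. The SCN10A window precedes a start inside the gene, which extends to position 38816217, and no window at its outer end was at hand. The count of CG did not sort the genes without exception. CACNA1A had 17 with no count in any library, CACNA2D3 had 31 with at most 8 counts, and the SCN2A windows had 1 each. Since the genes were divided by their measured level and windows of a gene are not independent, these values are a description with no test. The letters TATAAA, searched on either strand, were found in the SCN10A window and in 1 of the SCN2A windows, and in 10.7% of all windows. The letters TTCAGCACC, part of the element bound by the repressor REST, were found on either strand in the window of CACNG3 and in no other of the 40 windows, against 0.288% of all windows.

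**Figure D2:**
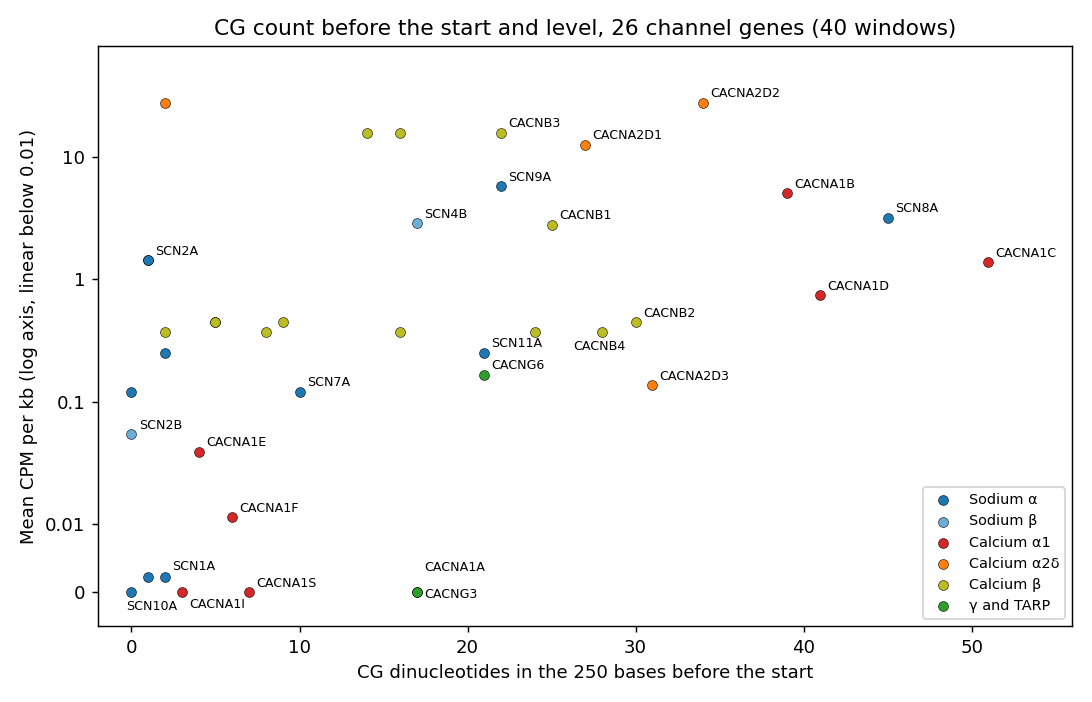
Number of CG dinucleotides in the 250 bases before each annotated start (horizontal) and mean level of the gene in CPM per kb (vertical, logarithmic above 0.01), for 26 channel genes with 40 windows; a gene with several starts has several points at 1 height, with its name at the window richest in CG. Genes with over 30 CG lie above 0.1 CPM per kb, and CACNA1A and CACNG3 lie at 0 with 17.

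Levels are compared between genes as CPM per kilobase of the longest transcript in GENCODE release 29 (CPM per kb). Among the sodium channel pore genes SCN9A stood highest, SCN3A and SCN8A were lower and not separated from each other, and SCN2A was lower still. SCN9A encodes the channel best known for its role in pain-sensing and sympathetic neurons. It lies at chr2:166195185-166375987 (all gene positions are those of RefSeq on GRCh38.p14) and had 54.7, 53.6 and 60.3 CPM in replicates 1, 2 and 3, from 585, 613 and 534 counts. Per kb this is 5.76 ± 0.366 (SD, n = 3), which placed it 8312th among 13868 genes that passed the same minimum and have a known length. It held 31.6 ± 2.06% of the summed sodium alpha level per kb.

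SCN3A, a channel of the fetal brain, had 29.3, 28.97 and 32.2 CPM, or 3.30 ± 0.195 CPM per kb. SCN8A, which sits at the axon initial segment and nodes of adult neurons, had 37.4, 38.8 and 33.4 CPM, or 3.16 ± 0.240 CPM per kb.

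The libraries of SCN3A and SCN8A overlapped per kb, so these 2 genes were not separated. The ranges of SCN9A and SCN3A did not overlap. Per coding length, and by CPM without a length, SCN8A came ahead of SCN3A. SCN9A stayed first by exon union length, by coding length and by CPM. SCN2A, a channel of excitatory neurons in the brain, had 16.1, 16.2 and 18.0 CPM, or 1.43 ± 0.0900 CPM per kb. The ratio of SCN3A to SCN2A per kb varied little, at 2.33, 2.29 and 2.29, and so did that of SCN9A to SCN3A, at 1.75, 1.73 and 1.75. These 3 genes have transcripts of like GC content, 37.6% to 39.1%.

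The remaining sodium alpha genes were scarce. SCN11A, a channel of small sensory neurons, had 18, 16 and 16 counts, or 1.63 ± 0.208 CPM. SCN7A, a relative that senses sodium concentration and is not opened by voltage, had 8, 12 and 8 counts. SCN1A, the sodium channel of inhibitory neurons, had 0, 1 and 0 counts, as had SCN4A, that of skeletal muscle, and SCN10A of sensory neurons had none.

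Of the beta subunits, which fine-tune gating and act as adhesion molecules, SCN3B was the highest. It had 63.8, 60.0 and 58.5 CPM, or 10.0 ± 0.448 CPM per kb, and held 73.5 ± 2.25% of the summed beta level per kb. SCN4B, which contributes to resurgent sodium current, had 13.3, 10.9 and 14.2 CPM. SCN2B had 2 to 4 counts. SCN3B and SCN4B did not overlap per kb, and their ratio was 3.04 to 4.09 over the libraries. The summed beta level was 0.748 ± 0.0176 of the summed alpha level per kb of the longest transcript. This ratio depends on the length used. In CPM without a length, the sums were 77.3 ± 3.49 for beta and 178 ± 3.51 for alpha. Coding bases are 645 of 6061 in the SCN3B transcript and 5964 of 9768 in that of SCN9A. The ratio by coding length, which was not computed, would be higher, so no direction is read from it.

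Among the calcium channel pore genes, CACNA1B led, and CACNA1A, its nearest relative in synaptic function, was not detected. CACNA1B encodes the N-type channel that triggers transmitter release in sympathetic and other peripheral neurons. It lies at chr9:137877782-138124619 and had 59.7, 45.5 and 41.7 CPM, from 638, 520 and 369 counts. Replicate 1 was the highest, and the coefficient of variation between libraries was 19.4% against a counting error of 4.43%. Per kb its level was 5.00 ± 0.968, and it held 63.2%, 59.3% and 59.5% of the summed alpha1 level in replicates 1, 2 and 3.

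CACNA1A, the P/Q-type channel of central synapses at chr19:13206442-13506479, had 0 counts in every library. Against a floor of 3 counts per library, CACNA1B was at least 109-fold higher per kb in replicate 3, at least 153-fold in replicate 2 and at least 188-fold in replicate 1. None of the 50-base words of the longest CACNA1A transcript occurs in a transcript of another gene in GENCODE release 29. CACNA1E, the R-type gene, had 6, 10 and 4 counts.

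The L-type genes, whose channels are the targets of dihydropyridine drugs, were represented by CACNA1C and CACNA1D. CACNA1C, the main L-type gene of heart and brain, had 21.1, 17.2 and 17.1 CPM, or 1.37 ± 0.173 CPM per kb. CACNA1D, which opens at lower voltages and paces endocrine and chromaffin cells, had 6.55, 7.18 and 6.21 CPM, or 0.739 ± 0.0545 CPM per kb. CACNA1S of skeletal muscle had 0 counts, and CACNA1F of the retina had 1, 0 and 1. The L-type genes together held 26.1 ± 1.85% of the alpha1 level per kb.

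Of the T-type genes, which open near the resting potential, CACNA1G was the only one with more than 1 count in a library. It had 9.73, 8.66 and 7.11 CPM from 104, 99 and 63 counts, or 1.04 ± 0.161 CPM per kb. CACNA1H had 0, 0 and 1 counts and CACNA1I had none. T-type genes held 12.8 ± 0.675% of the alpha1 level, nearly all of it CACNA1G. The ranges of CACNA1B, CACNA1C, CACNA1G and CACNA1D did not overlap per kb, and their order was the same by exon union length, by coding length and by CPM.

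**Figure D3:**
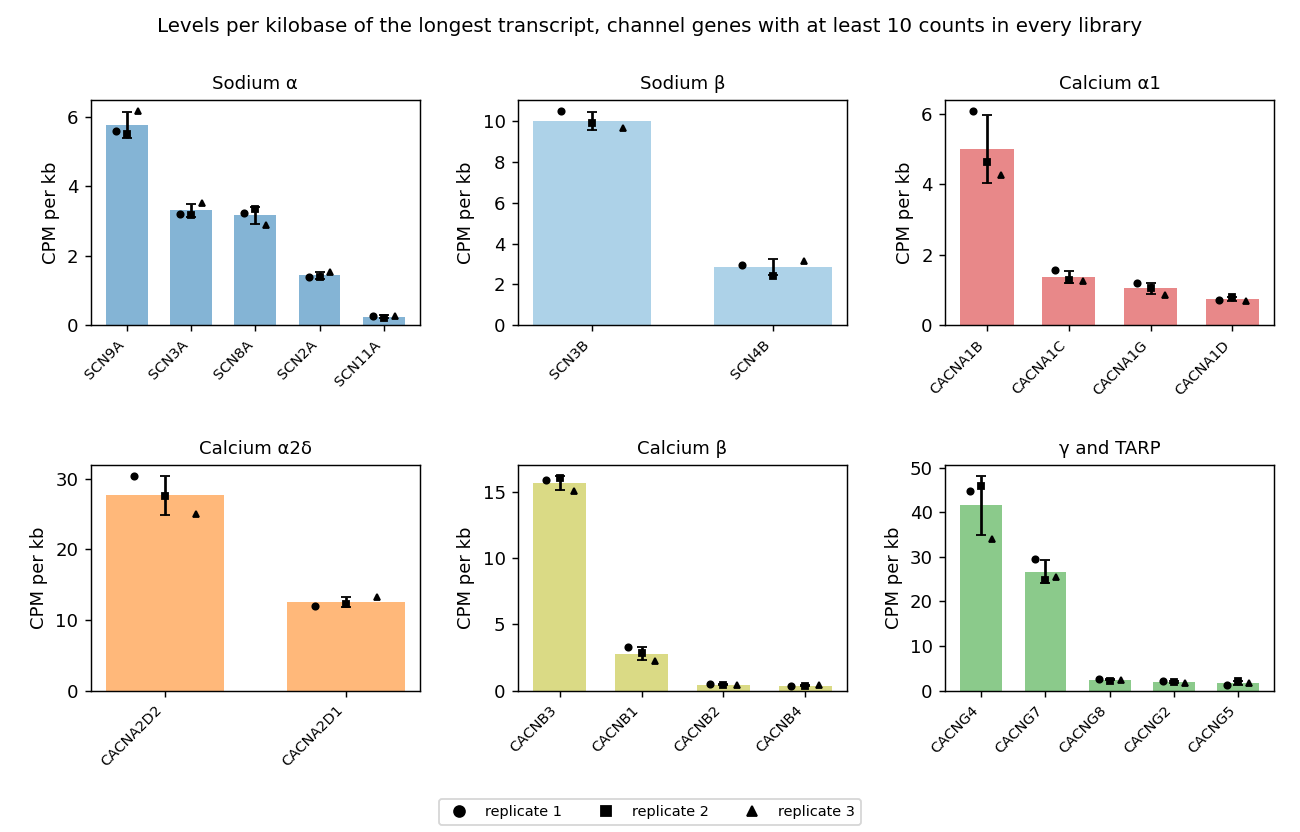
Level per kilobase (CPM per kb) of detected channel genes (10 or more counts in every library), by subunit class; bars are means of 3 control libraries, error bars the SD, points the single libraries, and each panel has its own linear axis from 0. SCN9A, SCN3B, CACNA1B, CACNA2D2, CACNB3 and CACNG4 lead their classes.

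Per kb, the summed levels of the alpha2delta and beta subunits each exceeded the summed level of the calcium channel pore genes. In CPM without a length, the sums were 247 ± 10.5 for alpha2delta, 83.6 ± 4.65 for beta and 83.3 ± 12.9 for alpha1. The excess of the beta subunits therefore came from dividing by length. The alpha2delta subunits, extracellular proteins that raise the number of channels at the membrane, summed to 4.96 ± 0.488 times the alpha1 level per kb. CACNA2D2 had 166, 151 and 137 CPM, or 27.6 ± 2.72 CPM per kb, and placed 2411th among the 13868 genes. CACNA2D1 had 91.0, 93.0 and 100 CPM, or 12.5 ± 0.646 CPM per kb. Replicate 1 was the highest library for CACNA2D2 and the lowest for CACNA2D1. Their ratio per kb was 2.53, 2.24 and 1.88, so CACNA2D2 was the higher in each library. The transcripts of these genes differ in GC content, 58.1% for CACNA2D2 and 37.2% for CACNA2D1. CACNA2D3 had 3 to 8 counts and CACNA2D4 had none.

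The cytoplasmic beta subunits, which bind the alpha1 protein and carry it to the membrane, summed to 2.37 ± 0.260 times the alpha1 level per kb. CACNB3, a neuronal beta gene commonly paired with N-type channels, had 63.9, 64.8 and 60.5 CPM, or 15.6 ± 0.553 CPM per kb. It held 81.3 ± 1.85% of the summed beta level, and its coefficient of variation was 3.54%, below its counting error of 3.91%. CACNB1, the beta gene of skeletal muscle that is also made in brain, had 17.3, 15.2 and 11.9 CPM, lowest in replicate 3. CACNB2, the main beta gene of heart, had 21 to 31 counts, and CACNB4, a brain gene, had 32 or 33 counts in each library. CACNB2 and CACNB4 overlapped per kb.

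The gamma family was led by genes of the TARP group, which carry AMPA-type glutamate receptors to synapses. CACNG4 had 151, 155 and 115 CPM from 1620, 1770 and 1014 counts, and replicate 3 lay below the others. Per kb it was the highest of the 40 genes, at 41.5 ± 6.63, and placed 1460th of 13868. Without replicate 3 its mean was 153 CPM, against 140 with it. CACNG7 followed with 79.4, 66.7 and 68.3 CPM, or 26.6 ± 2.57 CPM per kb, below CACNG4 in each library.

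CACNG8, a TARP of the hippocampus, had 21.8, 19.6 and 21.7 CPM. CACNG2, known as stargazin, had 5.24, 4.38 and 4.29 CPM, and CACNG5 had 1.78, 2.71 and 2.15 CPM from 19 to 31 counts. CACNG2 and CACNG5 overlapped per kb and were not separated. CACNG3, a TARP of the forebrain, had 0 counts in every library, which against the floor of 3 counts per library puts CACNG4 at least 309-fold higher per kb in replicate 3, the library with the smallest such bound. CACNG1, the gamma subunit of the skeletal muscle calcium channel, had 2 or 3 counts, and CACNG6 had 1 to 5. The 6 TARP genes held 99.5 ± 0.109% of the gamma family level per kb.

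Several of these genes lie side by side, and some neighbours differed widely. The chromosome 2 group covers SCN3A (165087526-165204050), SCN2A (165239414-165392304), SCN1A (165984641-166149161), SCN9A and SCN7A (166403573-166494249). In it SCN1A, with 1 count over the 3 libraries, lies between SCN2A and SCN9A. On chromosome 3, the neighbours SCN10A (38696807-38816217) and SCN11A (38845764-39051944) were both scarce. SCN10A had no count, and SCN11A had 16 to 18 counts, or 0.251 CPM per kb. On chromosome 17, CACNG4 (66964707-67033398) lies between CACNG5 (66835117-66894751) with 1.69 ± 0.360 CPM per kb and CACNG1 (67044554-67056797) with 0.202 ± 0.0220.

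On chromosome 19, the level per kb went from 26.6 in CACNG7 (53909278-53943950) through 2.40 in CACNG8 (53962937-53990215) to 0.166 in CACNG6 (53991149-54012666), over a span of 103 kb. Unlike pairs occurred elsewhere too. SCN4B (2.85 CPM per kb) and SCN2B (0.0543) lie within 43.3 kb of chromosome 11. CACNA2D4, with no count, adjoins CACNA1C on chromosome 12.

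**Figure D4:**
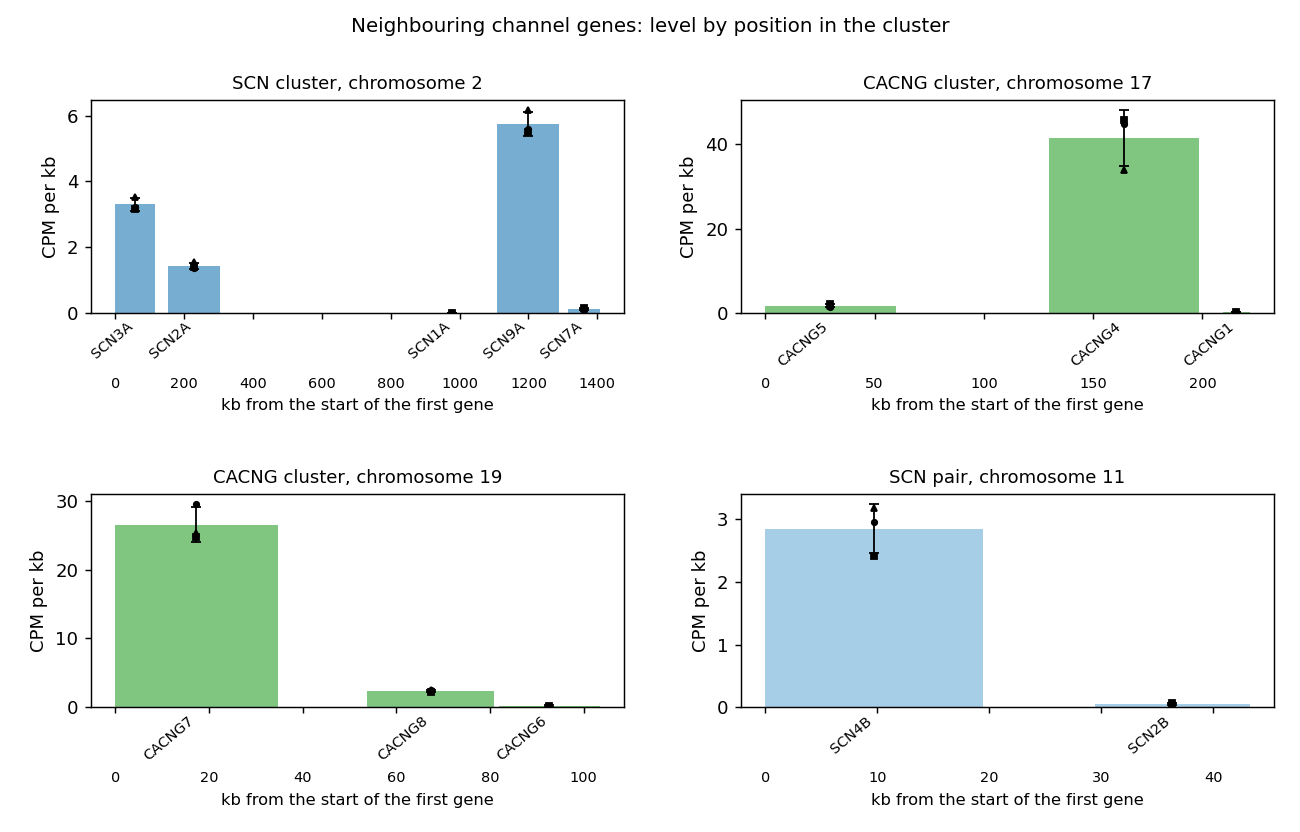
Mean level per kilobase of the longest transcript (CPM per kb) of neighbouring channel genes in 4 places of the genome, against the distance in kb from the start of the first gene; bar widths are the extents of the genes, error bars the SD and points the 3 control libraries. CACNG4 reaches 41.5 between 2 neighbours below 2, and SCN1A lies near 0 between SCN2A and SCN9A.

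The difference of replicate 3 from replicates 1 and 2 was related to the GC content of the transcripts. Relative to the mean of replicates 1 and 2, replicate 3 was higher for 6 of the 7 detected members with under 45% GC, the exception being CACNB2. The median difference over the 7 was 0.15 on the log2(CPM + 0.5) scale. It was lower for 9 of the 11 members with 55% GC or more, the exceptions being SCN4B and CACNG8. The median difference over the 11 was -0.22 on the same scale. The lowest log2 differences were -0.44 for CACNB1, -0.42 for CACNG4, -0.35 for CACNA1G and -0.33 for CACNA1B. Across the 24 detected members Spearman's rho between GC and this difference was -0.55, and across 13868 genes it was -0.61. Genes of 1 library share its preparation and are not independent replicates. The part of GC content in the spread of each member was not tested.

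The median coefficient of variation of the 24 members was 10.1%, with a median counting error of 7.02%, against 8.69% and 5.56% over all 13920 genes above the same minimum. The variation exceeded the counting error for 15 of the 24 (62.5%), against 9511 of all 13920 genes (68.3%), so the share among the channel genes was close to that of genes in general.

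**Figure D5:**
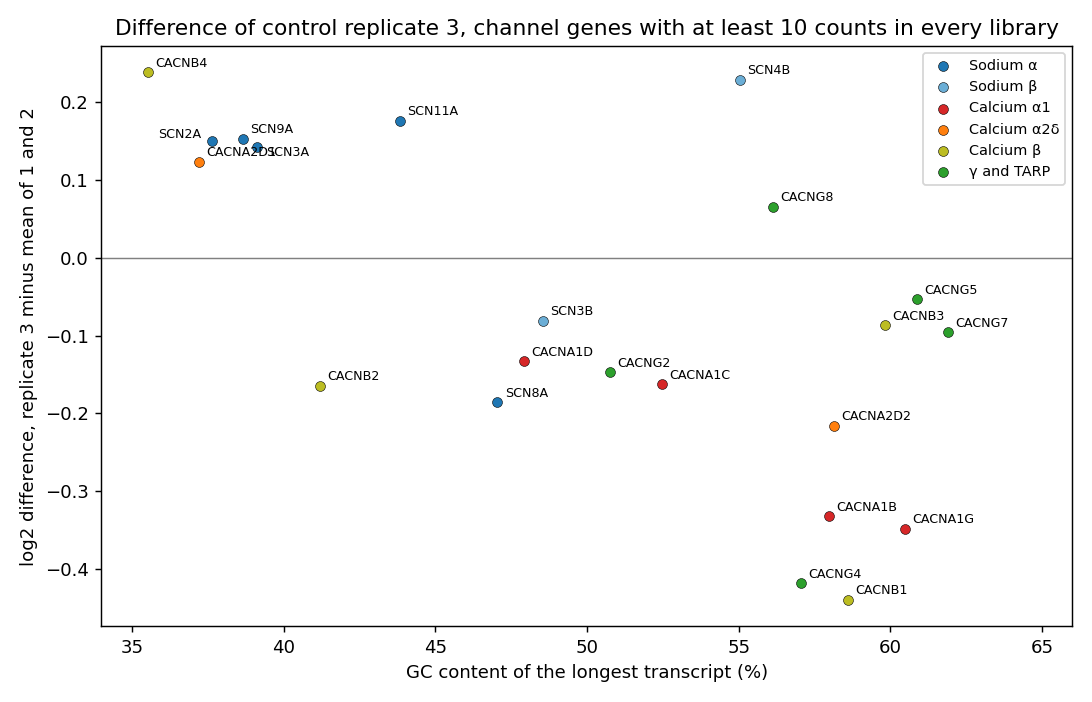
log2 difference of control replicate 3 from the mean of replicates 1 and 2 (vertical, from CPM + 0.5) against the GC content of the longest transcript (horizontal, %), for detected channel genes; each point is a gene. CACNA2D1, SCN2A, SCN9A and SCN3A, all under 40% GC, lie above 0, while CACNB1, CACNG4, CACNA1G and CACNA1B, all above 55%, lie below -0.3.

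Reads shared between genes limit some of these values, since how the counting treated them and whether it used strand are not given in the sources used here. Of the 50-base words in the longest transcript, 15.1% were shared with other genes for CACNA1D (with CHDH, which had 29, 47 and 35 counts), 13.3% for CACNB4, 10.4% for CACNB2, 9.37% for SCN3A, 7.36% for SCN8A and for CACNA1C, 5.43% for SCN9A and 3.85% for SCN2A. The antisense gene SCN1A-AS1, which shares words with SCN9A, had 1, 3 and 0 counts. No word was shared for SCN3B, CACNA1B, CACNA2D1, CACNB3 or CACNG7.

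Proteins that work with these channels were read from lists of other genes. Among 14 sodium channel partners, 11 had at least 10 counts in every library. The share over all 19913 protein-coding genes was 62.2%, which stands beside each count of passing genes in the lists below. Among the highest in CPM were the calmodulin gene CALM2 (920 ± 122 CPM) and the adhesion gene NRCAM (572 ± 49.1 CPM). Of the FGF homologous factors, which bind the tail of sodium channels, FGF14 had 84, 92 and 86 counts, while FGF11, FGF12 and FGF13 had at most 9. In the complex of the sodium leak channel, UNC79 had 53.6 ± 2.33 CPM, NALF1 51.4 ± 2.11 CPM and UNC80 37.8 ± 5.90 CPM, whereas the pore gene NALCN itself had 4, 7 and 7 counts.

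Of 12 calcium channel regulators, 10 passed, led by RIMBP2, which tethers calcium channels at release sites (122 ± 10.1 CPM), STAC (97.5 ± 3.72 CPM) and CACHD1 (45.7 ± 1.84 CPM). All 10 genes of the vesicle release machinery passed, with SYT4 (250 ± 22.04 CPM) and UNC13A (102 ± 7.76 CPM) among the highest. All 13 genes of calcium stores and store-operated entry passed, led by the pump ATP2A2 (576 ± 25.2 CPM), ORAI2 (178 ± 13.5 CPM) and the receptor gene ITPR1 (133 ± 13.5 CPM).

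Of 10 calcium extrusion genes 7 passed, led by ATP2B1 (114 ± 12.1 CPM), ATP2B4 (63.7 ± 4.32 CPM) and SLC8A3 (31.1 ± 1.504 CPM). Of 7 sodium-potassium pump genes 5 passed, with ATP1B1 (181 ± 4.93 CPM) and ATP1B3 (86.2 ± 6.87 CPM) among the highest. All 11 genes of the RE1 silencing complex, which represses neuronal genes including sodium channels in other tissues, passed. KDM1A had 263 ± 7.57 CPM, HDAC2 258 ± 12.7 CPM and SIN3A 168 ± 2.40 CPM. REST, its DNA-binding subunit, had 56.7, 55.6 and 61.0 CPM. The median of the mean CPM was 17.6 for sodium channel partners, 44.6 for the leak channel complex, 18.0 for calcium channel regulators, 62.4 for release machinery, 17.9 for calcium stores, 5.62 for extrusion, 9.99 for the sodium-potassium pump and 108 for RE1 silencing.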

How the data were processed

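Per the labels, total RNA was turned into stranded messenger RNA libraries. The submitters' processing notes name fastp 0.21.1, STAR 2.7.7a, featureCounts and GRCh38, with no role for each. The deposited values are raw counts per Ensembl gene, not normalized. The table lists 60710 genes, of which 1 has no value in the columns used. Its headings match 3 control samples, and 3 other columns match no sample and were not used. Symbols came from a table of Ensembl identifiers (60480 matched).

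Counts were scaled to CPM with TMM factors from edgeR 4.0.16 (R 4.3.3), which were tested on simulated data. CPM were divided by the longest transcript in GENCODE release 29. A gene counted as detected when each library had 10 counts or more. The floor for 0 was 3 counts. Other steps used Python 3.11.15, pandas 2.3.3 and scipy 1.17.1. No test between groups was run, because 1 group had matched columns. Members and lists were chosen with earlier results of these data known. Detected members were named, and of each list the 3 genes highest in CPM, plus REST; a few of these are not reported here. FGF genes, NALCN, TH and COL1A2 were named after their values were seen. Alternatives were RLE factors, library size alone, mitochondrial genes left out, other lengths, other minimums and each library left out.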

Additional observations from a re-analysis of the deposited data

How the results depend on the processing

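No paired analysis was possible because the treated samples had no matched column. For the same reason the planned edgeR test of treated against control was not run. The summed level of the 40 genes and of each class moved by less than 1 SD with RLE factors or library size alone. Leaving mitochondrial genes out of the totals raises every gene by construction, and moved the sums of sodium alpha to 187 CPM (from 178), sodium beta to 81.2 CPM (from 77.3) and alpha2delta to 259 CPM (from 247) by more than 1 SD. Of 24 detected genes, 2 moved by more than 1 SD in that setting, SCN3B and CACNB3, and none with RLE factors or library size alone. A mean of 3 libraries cannot move by 1 SD when 1 is left out, so those settings say nothing of stability. The share of the leading gene in its class moved with the length used. By exon union it was 28.8% for SCN9A, 70.0% for SCN3B, 68.9% for CACNA1B and 78.2% for CACNB3. By coding length it was 80.0% for SCN3B, 57.5% for CACNA1B, 60.2% for CACNA2D2 and 79.0% for CACNB3. By CPM without a length it was 78.6% for SCN3B, 61.3% for CACNA2D2 and 75.4% for CACNB3. The same gene led each class under all of these lengths. Below the first place, CACNB2 and CACNB4 changed places by coding length and by CPM, and CACNG2 and CACNG5 by exon union. The count of detected genes, 24, was 30 at a minimum of 1 count, 25 at 5 and 22 at 20. The median coefficient of variation, 10.1%, ranged from 7.22% to 10.9% when 1 library was left out. Depth limits the 6 genes with no count in any library: for them a level of 0 and one under 0.263 to 0.339 CPM, depending on the library, cannot be told apart.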
